A study of Rattus norvegicus with 48 samples.

Results

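The comparison described here is the addition of 4-octyl itaconate (4OI) to cultures that received the HIV-1 protein Tat. Its members were chosen by label: the 3 RNA-seq libraries of the Tat-4OI group were set against the 3 libraries of the Tat group, which makes 6 of the 48 libraries of the study, and every gene of the deposited table was considered. The cultures were primary cortical cells of embryonic Sprague-Dawley rats that held neurons, astrocytes and microglia together. Tat cultures received 6 ng/mL of recombinant Tat for 48 h, and Tat-4OI cultures received the same Tat together with 250 µM 4OI for 48 h. For reference, the Control group had none of these agents, and the 4OI group received 250 µM 4OI for 48 h without Tat. The Tat-Cocaine group received Tat with 25 µM cocaine for 24 h, and the Tat-Cocaine-4OI group received all 3 agents, with 3 libraries in each group. A Cocaine group, given 25 µM cocaine for 24 h without Tat, also had 3 libraries and was used only in the fit. The sources used here do not say whether tissue of several embryos was pooled or whether the 3 libraries of a group came from separate cultures, so the p-values measure the spread between these libraries, which may be technical. The vehicle given to the Tat cultures is not stated per group either.

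Tat is the transactivator that HIV-1 needs to transcribe its own genome, and infected cells release it in a form that acts on uninfected neighbours, where it drives microglia and astrocytes to make cytokines and chemokines. Itaconate is made by the enzyme ACOD1 from a citric acid cycle intermediate when macrophages and microglia are activated, and 4OI is an ester of itaconate that enters cells. In other systems 4OI alkylates cysteines of KEAP1, the protein that marks the transcription factor NRF2 (Nfe2l2) for degradation, and NRF2 then induces genes for glutathione synthesis, quinone reduction, NADPH supply and heme breakdown.

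Values are deposited read counts per gene scaled to a common library size (CPM), with a further scaling between libraries by the authors. Fold changes are differences of log2(CPM + 0.5) between Tat-4OI and Tat with their standard errors (SE), positive where Tat-4OI was higher, and FDR is the Benjamini-Hochberg adjusted p-value of limma. A gene was called, and is said to have risen or fallen, where the FDR was under 0.05. Sequencing depth, recovered from the steps of low values, was 20160000 to 22420000 reads in the Tat libraries and 18990000 to 21020000 reads in the Tat-4OI libraries, so that the 0.5 CPM used as a detection limit corresponded to 9.30 to 10.9 reads. Neuron, astrocyte and myeloid markers were present in all 6 libraries. So were markers of oligodendrocytes (summed CPM 611.1 to 2861) and of mural cells and fibroblasts (469.4 to 847.7). In contrast, 11 of 11 lymphocyte markers stayed under 0.5 CPM.

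Adding 4OI to Tat changed 1266 of 15609 tested genes (8.11%), of which 503 rose (3.22%) and 763 fell (4.89%). An unadjusted p under 0.05 by limma was reached by 4137 of the 15609 genes, and unadjusted counts given below are to be read beside that share. The falls were larger than the rises. The median size of a change was 0.57 on the log2 scale among the rises and 1.03 among the falls, and 394 of the falls but 85 of the rises reached 1. The groups did not overlap at 5505 of the 15609 genes (35.3%), and among the called genes at 499 of the 503 that rose and 757 of the 763 that fell. The calls rested on few libraries: 338 genes (2.17%) were called when any 1 of the 6 libraries was left out, 154 higher (0.987%) and 184 lower (1.18%). The count fell most without Tat-4OI replicate 1 (390 genes), Tat replicate 2 (438), Tat-4OI replicate 3 (478) and Tat replicate 1 (681).

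**Figure D1:**
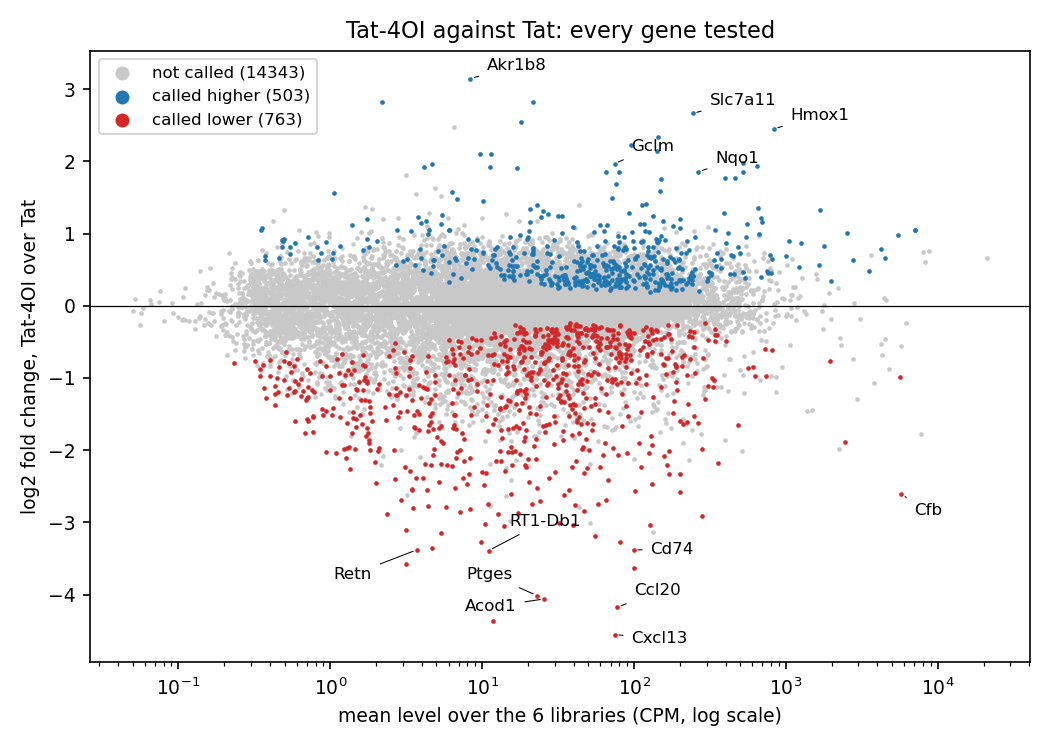
Fitted log2 fold change of Tat-4OI against Tat (vertical axis) over the mean CPM of the 6 libraries (horizontal axis, log scale), with 1 point per tested gene. Called genes are coloured by direction (503 higher, 763 lower), with falls of immune genes such as Cxcl13 and Ccl20 at the bottom and rises of Akr1b8 and Slc7a11 at the top.

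The clearest rises were genes of the antioxidant programme. Among the 32 tested members of the 4 lists of known NRF2 targets, 23 rose and 0 fell, with a median log2 fold change of 0.81 beside 0.001 over all genes, and 19 of the 23 were called whichever library was left out. The 9 members that were not called lay between -0.26 and 0.62, and without adjustment 1 of the 32 was lower at p under 0.05 by limma. To show where these genes carry the letters NRF2 is known to read, the promoter windows of 4 members are given here from RefSeq (GRCr8), written 5′ to 3′ on the strand of the gene with the antioxidant response element core TGACNNNGC, on either strand, in capitals. Gclm and Slc3a2 serve glutathione, Me1 serves NADPH and Txnrd1 serves thioredoxin.
Gclm, chr2:213031938-213031997 (+): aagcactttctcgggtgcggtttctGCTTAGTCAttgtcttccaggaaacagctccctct
Slc3a2, chr1:215039681-215039740 (-): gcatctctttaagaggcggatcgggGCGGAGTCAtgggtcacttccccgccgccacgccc
Me1, chr8:96540377-96540436 (-): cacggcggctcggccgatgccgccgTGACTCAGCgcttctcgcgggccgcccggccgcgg
Txnrd1, chr7:22755948-22756007 (-): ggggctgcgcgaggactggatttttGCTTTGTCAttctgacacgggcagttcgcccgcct

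The core lay within the window from 250 bases before to 50 after the start in 6 of the 18 risen members that had a RefSeq promoter, and in 12.1% of all 33469 promoters. In Me1 the match also holds the AP-1 letters TGANTCA. Such a match is a description of the letters in this window, and its absence says nothing of NRF2 binding elsewhere.

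Cystine import and glutathione synthesis rose at 6 of 9 tested genes. Slc7a11, the cystine-importing subunit of the cystine-glutamate exchanger, stood at 103, 55.0 and 48.2 CPM in the 3 Tat libraries and at 371, 488 and 394 CPM in the 3 Tat-4OI libraries. Every Tat-4OI library was above every Tat library, which was required of the largest rises named here (log2 fold change 2.67, SE 0.38, FDR 0.000531). Its partner subunit Slc3a2 rose from 330, 360 and 428 CPM to 731, 681 and 742 CPM (0.95, SE 0.19, FDR 0.00705). The 2 subunits of glutamate-cysteine ligase, which makes the first bond of glutathione, rose unequally. The modifier subunit Gclm went from 28.2, 29.2 and 31.96 CPM to 135, 95.4 and 127 CPM (1.97, SE 0.23, FDR 8.88e-05). The catalytic subunit Gclc went from 94.2, 102 and 99.4 CPM to 192, 173 and 182 CPM (0.89, SE 0.11, FDR 0.000167), and its Control libraries were already at 185 ± 31.5 CPM (mean ± SD, n = 3).

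Genes that reduce quinones and supply NADPH rose. Nqo1, a quinone reductase widely used as a readout of NRF2, was at 109, 114 and 122 CPM in Tat and at 407, 421 and 421 CPM in Tat-4OI (1.86, SE 0.16, FDR 4.67e-06). The quinone and carbonyl list rose at 5 of 7 tested genes, among them Cbr3 (1.92, FDR 9.27e-05) and Aox1 (1.41, FDR 6.11e-05). Akr1b8, an aldo-keto reductase, had the largest rise among the named genes, from 0.913, 0.552 and 1.70 CPM to 8.03, 30.9 and 8.03 CPM (3.15, SE 0.54, FDR 0.00241). Its Tat-4OI replicate 2 lay far above the other Tat-4OI libraries, and without that library the difference was 2.52. The thioredoxin and NADPH list rose at 7 of 9 genes. Its smallest FDR belonged to Taldo1, a transaldolase of the pentose phosphate pathway, at 167, 205 and 167 CPM in Tat and 610, 565 and 664 CPM in Tat-4OI (1.77, SE 0.13, FDR 8.68e-07). Osgin1, Me1 and Tkt rose by 1.91, 1.10 and 0.81, and Prdx1 and Txn1, which reduce peroxides and disulfides, were not called (0.11 and 0.14).

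Heme breakdown and iron storage rose as well. Hmox1, the oxygenase that opens the heme ring, went from 194, 291 and 272 CPM in Tat to 1806, 955 and 1474 CPM in Tat-4OI (2.45, SE 0.29, FDR 9.27e-05). Fth1, the ferritin heavy chain that stores iron, went from 3873, 5110 and 4795 CPM to 8531, 10250 and 9606 CPM (1.05, SE 0.20, FDR 0.00468). Blvrb, a biliverdin reductase, and the heme transporter Slc48a1 rose by 0.83 and 0.80, and the biliverdin reductase Blvra did not pass (-0.25, FDR 0.165). The study kept uniquely mapped reads only, so reads that ferritin genes share with pseudogene copies are missing from these values.

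**Figure D2:**
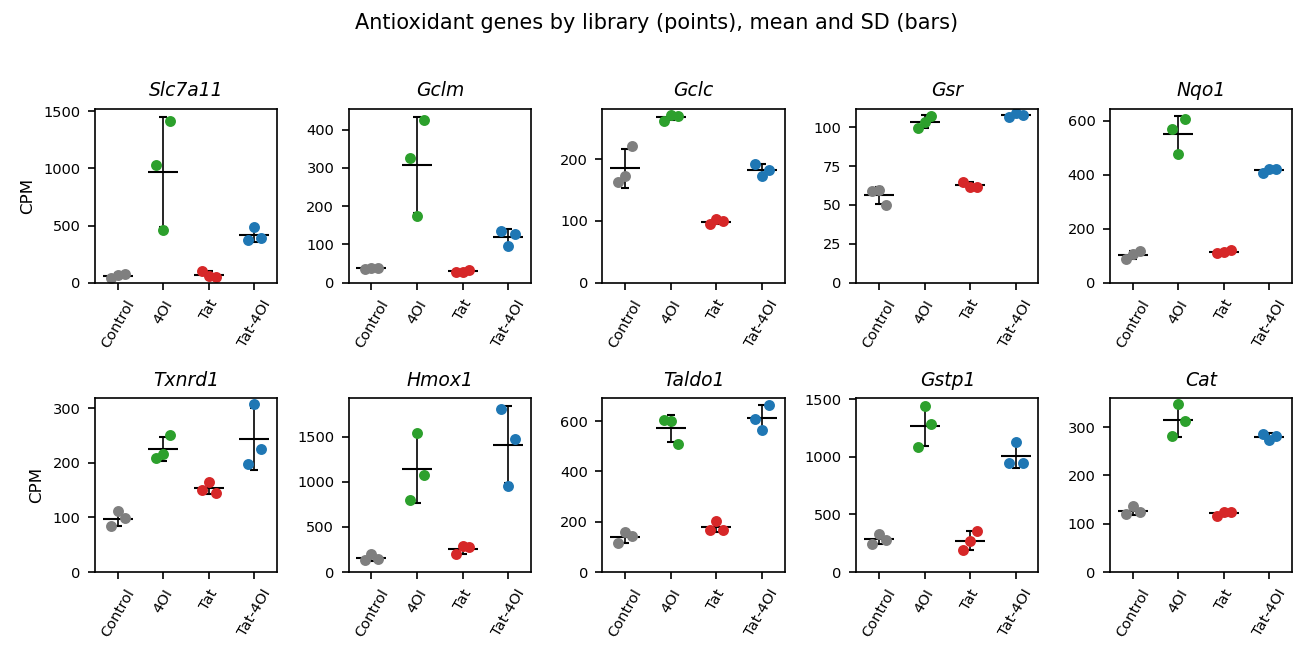
CPM (vertical axes, linear and set for each gene) of antioxidant genes in the Control, 4OI, Tat and Tat-4OI libraries, with 1 point per library, a dash at each group mean and bars of 1 SD. The Tat-4OI points lie above the Tat points for each gene drawn, as for Nqo1, where Tat reached 122 CPM at most and Tat-4OI started at 407 CPM.

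The transcript of NRF2 itself was not called. Nfe2l2 was at 179, 199 and 160 CPM in Tat and at 146, 158 and 159 CPM in Tat-4OI (-0.21, SE 0.12, FDR 0.294). Of the 9 tested genes for NRF2 and its regulators 3 rose, and all 3 are known NRF2 targets that act on it in turn: the autophagy receptor Sqstm1 (0.65, FDR 0.000788), Keap1 (0.49, FDR 0.00768) and the small MAF partner Mafg (0.42, FDR 0.0106). Outside the 4 lists, glutathione S-transferases were split, with 5 of 19 higher and 1 lower. Gstp1 went from 188, 268 and 354 CPM to 949, 1131 and 949 CPM (1.94, SE 0.37, FDR 0.00446), Gsta1 rose by 1.77 and Gstz1, which acts in tyrosine breakdown, fell by 0.74 on the log2 scale. Members of this family share sequence, and reads that map to several of them were not counted. Catalase (Cat) rose from 116, 125 and 123.4 CPM to 286, 273 and 281 CPM (1.21, SE 0.10, FDR 4.67e-06), while Sod2, the mitochondrial superoxide dismutase and an NF-kB target, stood at 4383, 4599 and 3370 CPM in Tat and 969.9, 2483 and 1911 CPM in Tat-4OI and missed the threshold (-1.29, FDR 0.053).

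Sterol synthesis was the other metabolic group that moved together. Among 22 tested cholesterol synthesis genes 9 rose and 0 fell (0 lower at an unadjusted p under 0.05 by limma), with a median of 0.48, and 4 of the 9 were called whichever library was left out. The count was lowest without Tat-4OI replicate 1 (4 genes) and Tat replicate 2 (5 genes). Hmgcs1, which commits acetyl units to the pathway, rose from 228, 212 and 229 CPM to 429, 458 and 498 CPM (1.04, SE 0.18, FDR 0.0024). The later enzymes Cyp51 and Msmo1 rose by 1.08 and 0.97, and Sqle (0.24) and Fdps (0.35) were not called. Chaperones rose at 4 of 15 genes, with Bag3, a co-chaperone, at 0.70 (FDR 0.00554) and the mitochondrial chaperonin Hspd1 at 0.47 (FDR 0.000788). Glycolysis had 1 rise, the glucose transporter Slc2a1 (0.77, FDR 0.00759), among 17 genes, beside 3.22% of all tested genes.

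Several of the largest rises belonged to none of these lists. Pla2g7, which encodes an enzyme that breaks down platelet-activating factor, went from 43.5, 41.3 and 55.3 CPM to 289, 203 and 224 CPM (2.34, SE 0.17, FDR 8.68e-07). Ddit4l2 went from 4.72, 3.68 and 6.48 CPM to 48.5, 29.8 and 35.6 CPM (2.82, SE 0.26, FDR 1.15e-05). Igfbp5, a binding protein for insulin-like growth factors, went from 191, 282 and 165 CPM to 980, 738 and 753 CPM (1.98, SE 0.21, FDR 3.98e-05). These genes were named from those whose groups did not overlap, so the lack of overlap is no separate result. Entpd5, a nucleoside diphosphatase of the endoplasmic reticulum, rose by 2.15 and Bambi, a decoy receptor of the TGF-beta family, by 2.10.

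Many immune genes fell. Over 12 lists of cytokines, chemokines, their receptors and signalling, interferon, antigen presentation, complement and acute-phase genes, 193 genes were tested, of which 71 fell and 1 rose, with a median of -1.29. Fewer of these calls held without a library than of the antioxidant ones: 18 of the 71 were called in each of the 6 fits, and the count was 19 on omission of the first Tat-4OI library, 21 on omission of the second Tat library, 27 on that of the third Tat-4OI library and 41 on that of the first Tat library. The counts of the interleukin-1, NF-kB and Toll-like receptor lists each dropped to 1 without Tat-4OI replicate 1 and without Tat replicate 2. The myeloid marker genes moved beside them. Their summed level over 18 genes was 4523, 6607 and 3445 CPM in Tat and 1573, 3268 and 1330 CPM in Tat-4OI. All 17 tested markers had a lower mean in Tat-4OI (median -1.19), 13 of 17 at an unadjusted p under 0.05 by limma, and 0 were called, with Cd52 listed at 0. Aif1, the IBA1 protein of microglia and macrophages, was at 217, 366 and 139 CPM in Tat and 53.7, 147 and 46.8 CPM in Tat-4OI (-1.62, FDR 0.149), and Itgam at 199, 352 and 192 against 77.9, 177 and 79.3 CPM (-1.20, FDR 0.127). In such bulk libraries fewer cells of a type and less RNA per cell cannot be told apart, and the part of the myeloid markers in the immune falls was not tested.

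MHC class II was the immune group whose fall depended least on any library. These molecules present peptides to helper T cells, CIITA is the coactivator that their promoters need, and the Y box, which binds NF-Y, is a conserved element of those promoters. The RefSeq (GRCr8) promoters of the 4 chain genes that fell and hold the Y box CTGATTGG are shown with it in capitals, on the strand of the gene.
RT1-Da, chr20:4515337-4515396 (+): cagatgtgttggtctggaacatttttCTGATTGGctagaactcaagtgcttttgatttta
RT1-Db1, chr20:4560212-4560271 (-): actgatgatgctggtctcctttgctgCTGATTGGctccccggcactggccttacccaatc
RT1-Ba, chr20:4576985-4577044 (+): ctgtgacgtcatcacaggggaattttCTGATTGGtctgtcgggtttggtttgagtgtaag
RT1-Bb, chr20:4604149-4604208 (-): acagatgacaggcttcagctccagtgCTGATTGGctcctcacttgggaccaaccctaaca

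The Y box began 83 to 46 bases before the start in these 4 (positions -83, -64, -52 and -46), and the same letters, searched on both strands and overlapping the ATTGG of the CCAAT box, occur in 3.5% of all promoters. The windows of Cd74 and RT1-DOb do not hold these exact letters, and the table used here has no promoter for Ciita.

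All 7 tested class II genes fell (median -2.82), and 6 of them were called whichever library was left out. Cd74, the invariant chain that guides class II molecules to the endosome, was at 193, 204 and 148 CPM in Tat and at 13.1, 21.0 and 17.2 CPM in Tat-4OI (-3.38, SE 0.67, FDR 0.00586). RT1-Db1, a beta chain, went from 17.3, 22.6 and 21.7 CPM to 1.07, 1.69 and 1.80 CPM (-3.39, SE 0.36, FDR 3.98e-05). RT1-Da, an alpha chain, went from 20.2, 23.4 and 24.3 CPM to 3.05, 2.96 and 2.00 CPM (-2.88, SE 0.33, FDR 8.7e-05). The highest Tat-4OI library was below the lowest Tat library at each of them, which was required of the largest falls named here. RT1-Ba fell by 2.82, RT1-Bb by 2.55 and RT1-DOb by 1.07 on the log2 scale. Ciita itself went from 9.02, 6.90 and 3.59 CPM to 0.161, 0.806 and 0.486 CPM (-2.80, SE 0.49, FDR 0.00243). RT1-Bb, RT1-DOb and Ciita were named after their values were seen, to complete the list. The RT1 genes are close paralogs, and reads that match several of them were not counted, since the study used uniquely mapped reads only.

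Class II transcripts were also low beside the myeloid markers. Their summed CPM over 10 genes was 5.63%, 4.29% and 6.61% of the summed myeloid marker CPM in the 3 Tat libraries and 1.33%, 0.924% and 1.81% in the 3 Tat-4OI libraries, which do not overlap. The corresponding share in Control was 0.223% to 0.390%. A large part of the myeloid sum in Tat was Lyz2, at 2359, 2956 and 1076 CPM. Lyz2 was at 449, 1477 and 564 CPM in Tat-4OI and at 88.1, 193 and 182 CPM in Control. Shares of this sum therefore depend in part on that gene, and a sum without it was not tested. Summed CC chemokines were 33.2% to 51.9% of the myeloid sum in Tat and 16.5% to 31.4% in Tat-4OI, which do not overlap either. Summed interleukin-1 family transcripts were 7.13% to 7.49% of it in Tat and 4.82% to 8.69% in Tat-4OI, which overlap. Genes that load MHC class I showed no call among 11 tested, 11 of 11 had a lower mean in Tat-4OI (median -0.77), 7 of them at an unadjusted p under 0.05 by limma, and B2m, the light chain, was at 4407, 4895 and 5648 CPM against 3714, 2868 and 3847 CPM (-0.52, FDR 0.195).

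**Figure D3:**
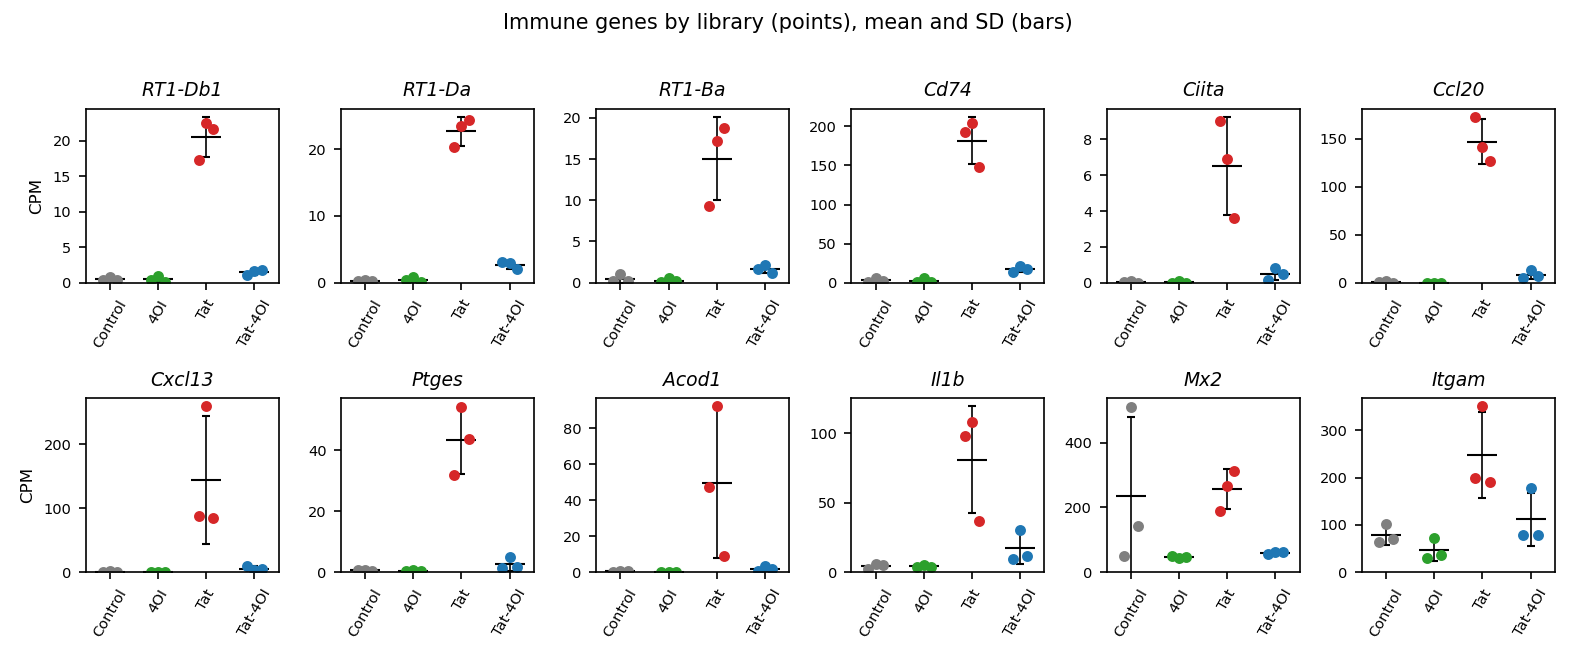
CPM (vertical axes, linear and set for each gene) of immune genes in the Control, 4OI, Tat and Tat-4OI libraries, with 1 point per library, a dash at each group mean and bars of 1 SD. Cd74 fell from 148 to 204 CPM in Tat to 13.1 to 21.0 CPM in Tat-4OI and stayed above Control, whose libraries reached 5.69 CPM.

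Some chemokines fell steeply. Cxcl13, which attracts B cells and had the deepest fall of the named genes, was at 87.2, 259 and 84.2 CPM in Tat and at 9.53, 2.47 and 4.48 CPM in Tat-4OI (-4.55, SE 0.53, FDR 9.04e-05). Ccl20, the ligand of CCR6, went from 172, 141 and 127 CPM to 4.66, 12.96 and 7.10 CPM (-4.18, SE 0.56, FDR 0.000315). Ccl22 went from 8.77, 4.83 and 5.11 CPM to 0, 0 and 0.146 CPM, where 3 reads are worth about as much as the highest value (-3.58, FDR 0.000436). In all, 5 of 12 CC chemokines and 2 of 14 CXC and CX3C chemokines fell (medians -2.0 and -1.42), and 2 and 1 of them were called in each of the fits without 1 library. The monocyte attractants at high level were more variable. Ccl7 fell from 527, 646 and 550 CPM to 65.8, 241 and 126 CPM (-2.18, FDR 0.0326), and was called in 1 of the 6 fits without a library. Ccl2 was at 704, 916 and 782 CPM against 99.7, 386 and 198 CPM without passing (-2.01, FDR 0.0653), Ccl3 likewise (-1.88, FDR 0.0651), and Cxcl6, at 176, 85.1 and 16.3 against 2.03, 22.5 and 7.78 CPM, overlapped (-3.01, FDR 0.111).

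Interleukins and TNF family members fell in part. In the interleukin-1 and interleukin-18 family 6 of 10 tested genes fell (median -1.30). Il1b was at 98.3, 108 and 36.97 CPM in Tat and 9.31, 30.6 and 11.8 CPM in Tat-4OI (-2.25, SE 0.63, FDR 0.0374), and the secreted antagonist of its receptor, Il1rn, went from 88.5, 155 and 58.6 CPM to 7.65, 26.1 and 11.9 CPM (-2.75, FDR 0.0125). Il1a and Il18 fell by 1.87 and 1.95 on the log2 scale. These 4 were called in 2 or 3 of the 6 fits without a library, and Il18rap, a receptor subunit for interleukin-18, in all 6 (-1.58, FDR 0.000966). Il6 stood at 3.45, 3.22 and 1.42 CPM against 0.910, 3.44 and 2.38 CPM, and the groups overlapped (-0.27, FDR 0.80). Il10 fell at a level near the detection limit, from 1.22, 0.736 and 0.189 CPM to 0.0535, 0 and 0 CPM (-1.13, FDR 0.0234), and Tnf was listed at 0 in all 6 libraries. Of 13 TNF ligands and receptors 7 fell, and Tnfsf10, the death ligand TRAIL (-2.56, FDR 0.000165), and Tnfsf15 (-2.01, FDR 0.000323) were called whichever library was left out.

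The NF-kB list held subunits of the factor and genes that it induces, some of which restrain it. Activity of the pathway itself was not measured. Of the 17 tested genes of this list 7 fell (median -0.99), and of these Nfkbiz was called in all 6 fits without a library. Windows of the 3 fallen members whose RefSeq (GRCr8) promoters hold the kappa B letters (GGG and TTTCC with 2 bases between them) on either strand follow, with the letters in capitals.
Nfkbiz, chr11:58251661-58251720 (+): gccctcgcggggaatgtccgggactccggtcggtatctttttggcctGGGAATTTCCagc
Tnfaip3, chr1:15544012-15544071 (-): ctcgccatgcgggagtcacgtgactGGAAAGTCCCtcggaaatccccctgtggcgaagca
Nfkbia, chr6:78597073-78597132 (-): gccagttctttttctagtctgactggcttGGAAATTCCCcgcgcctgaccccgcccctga

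These letters occur in 3 of the 6 fallen members with a RefSeq promoter and in 1.53% of all promoters, and Tnfaip3 holds a further match in lower case downstream. Nfkbiz, which encodes a nuclear inhibitor-like cofactor, fell from 185, 208 and 202 CPM to 27.8, 82.5 and 47.7 CPM (-2.04, SE 0.39, FDR 0.005). Tnfaip3, the ubiquitin-editing enzyme A20, fell from 64.9, 94.6 and 59.0 CPM to 11.9, 29.7 and 16.5 CPM (-1.95, SE 0.45, FDR 0.015). Nfkbia, the inhibitor IkB-alpha, was named after its values were seen (-1.29, FDR 0.0384). The subunits Nfkb1 (-0.75, FDR 0.0931) and Rela were not called. Tnip3, a partner of A20, was among the largest falls of all genes, at 13.4, 10.6 and 3.17 CPM in Tat against 0.107, 0.376 and 0.486 CPM in Tat-4OI (-3.36, FDR 0.00131).

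Some of the upstream receptors fell. Of 23 Toll-like receptor and inflammasome genes 8 fell (median -1.30), with the peptidoglycan sensor Nod2 called throughout, from 7.76, 8.55 and 7.14 CPM to 1.18, 1.83 and 0.973 CPM (-2.21, SE 0.35, FDR 0.00138). The coreceptor Cd14 was at 172, 192 and 40.5 CPM against 19.8, 90.3 and 29.1 CPM and overlapped (-1.55, FDR 0.205). Pdcd1lg2, a ligand of the T cell receptor PD-1, fell from 9.38, 7.31 and 1.84 CPM to 0.214, 0.215 and 0.0486 CPM (-3.11, FDR 0.00315). Retn, which encodes the secreted peptide resistin, fell from 5.02, 9.20 and 7.42 CPM to 0.107, 0.538 and 0.0973 CPM (-3.38, SE 0.26, FDR 1.87e-06). It was at 0 in the Control and 4OI libraries, which share in its SE.

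Interferon-stimulated genes fell at 14 of 30 tested members, and all 30 had a lower mean in Tat-4OI (median -1.90). These calls were the least stable of the immune lists. The count dropped to 0 on leaving out the first Tat-4OI or the second Tat library, with 22 and 23 of the 30 lower at an unadjusted p under 0.05 by limma. It was 1 without the third Tat-4OI library, 6 without the first Tat library, 7 without the third Tat library and 10 without the second Tat-4OI library, and 0 of the 14 genes were called in each of the 6 fits. The interferon response letters, GAAA repeated after a gap of 2 bases, stand on either strand in the RefSeq (GRCr8) promoters of 6 of the 7 fallen members that could be matched and in 3.92% of all promoters. The windows of Oas1a, which makes the activator of RNase L, the GTPase gene Gbp5 and Xaf1 show them in capitals.
Oas1a, chr12:41330400-41330459 (+): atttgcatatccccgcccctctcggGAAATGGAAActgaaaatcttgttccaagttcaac
Gbp5, chr2:233910918-233910977 (+): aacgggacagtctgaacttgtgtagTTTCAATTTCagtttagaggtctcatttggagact
Xaf1, chr10:57415875-57415934 (+): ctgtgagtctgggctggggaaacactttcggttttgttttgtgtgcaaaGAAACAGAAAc

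In Oas1a a further match overlaps the capitals by 4 letters. Isg15, a ubiquitin-like modifier, was at 45.4, 52.4 and 83.7 CPM in Tat and at 8.08, 9.30 and 9.93 CPM in Tat-4OI (-2.62, SE 0.70, FDR 0.0313). Usp18, which removes that modifier, fell by 3.01 on the log2 scale (FDR 0.0192) and Rtp4 by 2.84 (FDR 0.0137). The Control libraries ranged widely for these genes, with Isg15 at 6.56, 124 and 24.6 CPM, and the 4OI libraries were low, at 6.48, 4.79 and 6.504 CPM. The Isg15 levels of Tat-4OI and those of Tat therefore both lay inside the Control range. Isg15 was not called in Tat against Control (1.07, FDR 0.313), so a return to the Control level cannot be read from it.

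Some complement and acute-phase genes were abundant transcripts of the Tat cultures. Cfb, complement factor B, stood at 9233, 12390 and 7843 CPM in Tat and 910.2, 2392 and 1800 CPM in Tat-4OI (-2.61, SE 0.70, FDR 0.0307). C4b, at a far lower level, fell from 10.8, 13.6 and 7.94 CPM to 1.52, 2.02 and 2.07 CPM (-2.23, SE 0.43, FDR 0.00519) and was called whichever library was left out. The inhibitor Serping1 fell by 1.89 on the log2 scale (FDR 0.0284), the membrane inhibitor Cd59 rose by 0.81 (FDR 0.00586), and C3 was at 7117, 5384 and 2840 CPM against 1410, 3761 and 2204 CPM and overlapped (-1.07, FDR 0.26). Of 13 acute-phase and secreted defence genes 7 fell (median -1.90), and 1 of the 7 was called in each of the 6 fits without a library. Their count was 1 without Tat-4OI replicate 1, 2 without Tat replicate 1 or Tat replicate 2 and 3 without Tat-4OI replicate 3. The 7 included the secreted phospholipase Pla2g2a, from 30.98, 35.1 and 3.59 CPM to 0.0535, 1.24 and 0.0486 CPM (-4.36, FDR 0.0116), which was called in 2 of the 6 fits, and the protease inhibitor Slpi, from 57.7, 110 and 116 CPM to 3.24, 39.7 and 6.06 CPM (-3.19, FDR 0.00759). Lcn2, the siderophore-binding lipocalin, was at 13560, 12750 and 8461 CPM against 1467, 6461 and 3892 CPM and was not called (-1.77, SE 0.86, FDR 0.20).

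Prostaglandin synthesis fell at 4 of 15 genes. Ptges, the inducible terminal synthase of prostaglandin E2, went from 31.8, 54.2 and 43.8 CPM to 1.18, 4.89 and 1.56 CPM (-4.01, SE 0.57, FDR 0.000531), while the constitutive Ptges2 went from 63.7, 60.5 and 58.6 CPM to 40.6, 40.3 and 41.3 CPM (-0.58, SE 0.11, FDR 0.00398). Both were called whichever library was left out. Hpgds, the prostaglandin D2 synthase of hematopoietic cells, fell by 2.30 on the log2 scale (FDR 0.0224).

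Acod1, the enzyme that makes itaconate itself, was at 47.5, 92.2 and 8.75 CPM in Tat and at 0.535, 3.39 and 1.70 CPM in Tat-4OI. The Tat libraries differed widely, the groups did not overlap, and the gene fell (-4.06, SE 0.85, FDR 0.00843) in the main comparison and in 4 of the 6 fits without 1 library. The call was lost without Tat-4OI replicate 1 and without Tat replicate 2.

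Some phagocyte and macrophage genes fell. Of 13 genes of the phagocyte oxidase and cytoskeleton 5 fell (median -1.70), with the Src-family kinase Fgr, from 79.2, 70.2 and 43.2 CPM to 7.71, 20.8 and 13.2 CPM (-2.23, SE 0.43, FDR 0.00528), called in each of the 6 fits. The count was 1 when either the first Tat-4OI or the second Tat library was omitted, 2 when either the third Tat-4OI or the first Tat library was, and 8 and 10 on omission of the second Tat-4OI and the third Tat library. The crosslinking enzyme Tgm2 fell by 2.47 on the log2 scale (FDR 0.0106). The small GTPase Rac2 (-1.70, FDR 0.0586) and the actin regulator Vasp (-1.33, FDR 0.0556) did not pass. Markers of border macrophages fell at 6 of 10 genes (median -1.70), with Ms4a7 at 29.6, 42.99 and 17.9 CPM against 2.14, 7.63 and 2.33 CPM (-2.88, FDR 0.0119), but 0 of the 6 were called in each of the fits without a library. The count was 0 on omission of the first or the third Tat-4OI library (7 and 6 lower at an unadjusted p under 0.05 by limma). It was 1, 2 and 3 on omission of the first, the second and the third Tat library. Summed border macrophage markers were 12.4% to 16.9% of the myeloid sum in Tat and 9.16% to 13.6% in Tat-4OI, which overlap. Cd163, a hemoglobin scavenger receptor, was at 8.11, 2.21 and 11.5 CPM in Tat, at 0.428, 1.67 and 0.486 CPM in Tat-4OI (-2.38, FDR 0.0185) and at 40.5 to 63.0 CPM in Control.

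Falls in the microglial lists are to be read beside the 4.89% of all tested genes that fell. Among 12 tested genes of homeostatic microglia all 12 lay below 0 (median -0.70), 4 of them at an unadjusted p under 0.05 by limma. That mark was reached by 4137 of all 15609 tested genes. The 1 that fell was Olfml3 (-1.64, FDR 0.0351), and the call was lost in 5 of the 6 fits without a library. Their summed CPM was 8.77% to 11.9% of the myeloid sum in Tat and 11.8% to 23.4% in Tat-4OI. Among 17 genes of disease-associated microglia 2 fell (median -0.13), with the beta-glucan receptor Clec7a, at 17.2, 17.7 and 21.6 CPM against 6.31, 9.62 and 7.01 CPM (-1.26, SE 0.23, FDR 0.00336), called in each of the 6 fits. Apoe, at 6169, 7139 and 7060 CPM against 6084, 3811 and 4174 CPM, was not called (-0.56, FDR 0.133).

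Purinergic receptors sense extracellular nucleotides and phosphodiesterases degrade cyclic nucleotides. Among 14 P2 receptors 2 fell, beside 4.89% of all tested genes. P2rx1, an ATP-gated channel that was called whichever library was left out, went from 6.69, 5.33 and 5.29 CPM to 1.87, 1.18 and 1.31 CPM (-1.69, SE 0.28, FDR 0.00186), and P2ry2, a receptor for ATP and UTP, from 12.3, 14.8 and 10.8 CPM to 3.16, 5.91 and 3.60 CPM (-1.51, SE 0.33, FDR 0.0107). P2rx4 (-0.79, FDR 0.0847) and P2ry6 (-1.88, FDR 0.0622) were not called. Their groups did not overlap, which held at 35.3% of all tested genes. Among 20 phosphodiesterases 2 fell, beside 4.89% of all tested genes. Their count was 0 without Tat-4OI replicate 1 or Tat replicate 2 (2 lower at an unadjusted p under 0.05 by limma in each). The cAMP-degrading Pde4b went from 97.7, 113 and 104 CPM to 44.8, 54.6 and 48.9 CPM (-1.08, SE 0.26, FDR 0.0185), and the cGMP-degrading Pde5a from 25.0, 24.9 and 17.5 CPM to 8.78, 13.3 and 10.2 CPM (-1.03, SE 0.22, FDR 0.00955).

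Neuronal genes were higher on average without passing. The summed neuron markers were at 3900, 2207 and 3947 CPM in Tat and at 5364, 4440 and 5020 CPM in Tat-4OI. All 18 tested markers had a higher mean in Tat-4OI (median 0.59), and 0 of 18 were called. An unadjusted p under 0.05 by limma was reached by 3 of the 18, and by 4137 of all 15609 tested genes. Map2, the dendritic microtubule protein, was at 471, 302 and 396 CPM against 591, 535 and 578 CPM (0.57, SE 0.26, FDR 0.173). Glutamate and GABA-A receptor subunits likewise showed 0 calls by limma among 28, with a median of 0.60 and unadjusted p under 0.05 at 10 higher and 1 lower. Tat replicate 2 was the lowest library for Map2 and for the subunit Gria2 (181, 107 and 167 against 236, 186 and 210 CPM). Astrocyte markers were mixed, with 2 of 19 higher, the neurotensin receptor Ntsr2 (1.25, FDR 0.0378) and the glutamate transporter Slc1a2 (0.79, FDR 0.0384), and 1 lower, the acyl-CoA synthetase Acsbg1 (-0.84, FDR 0.029), and none of these 3 was called in each of the fits without a library. Gfap, the intermediate filament of astrocytes, was at 3680, 2430 and 2231 CPM against 4139, 3970 and 5297 CPM (0.71, FDR 0.0768). Oligodendrocyte markers had 0 calls by limma among 13 and 0 at an unadjusted p under 0.05, and their summed CPM ranged from 623.8 to 2861 in Tat and from 611.1 to 2548 in Tat-4OI.

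**Figure D4:**
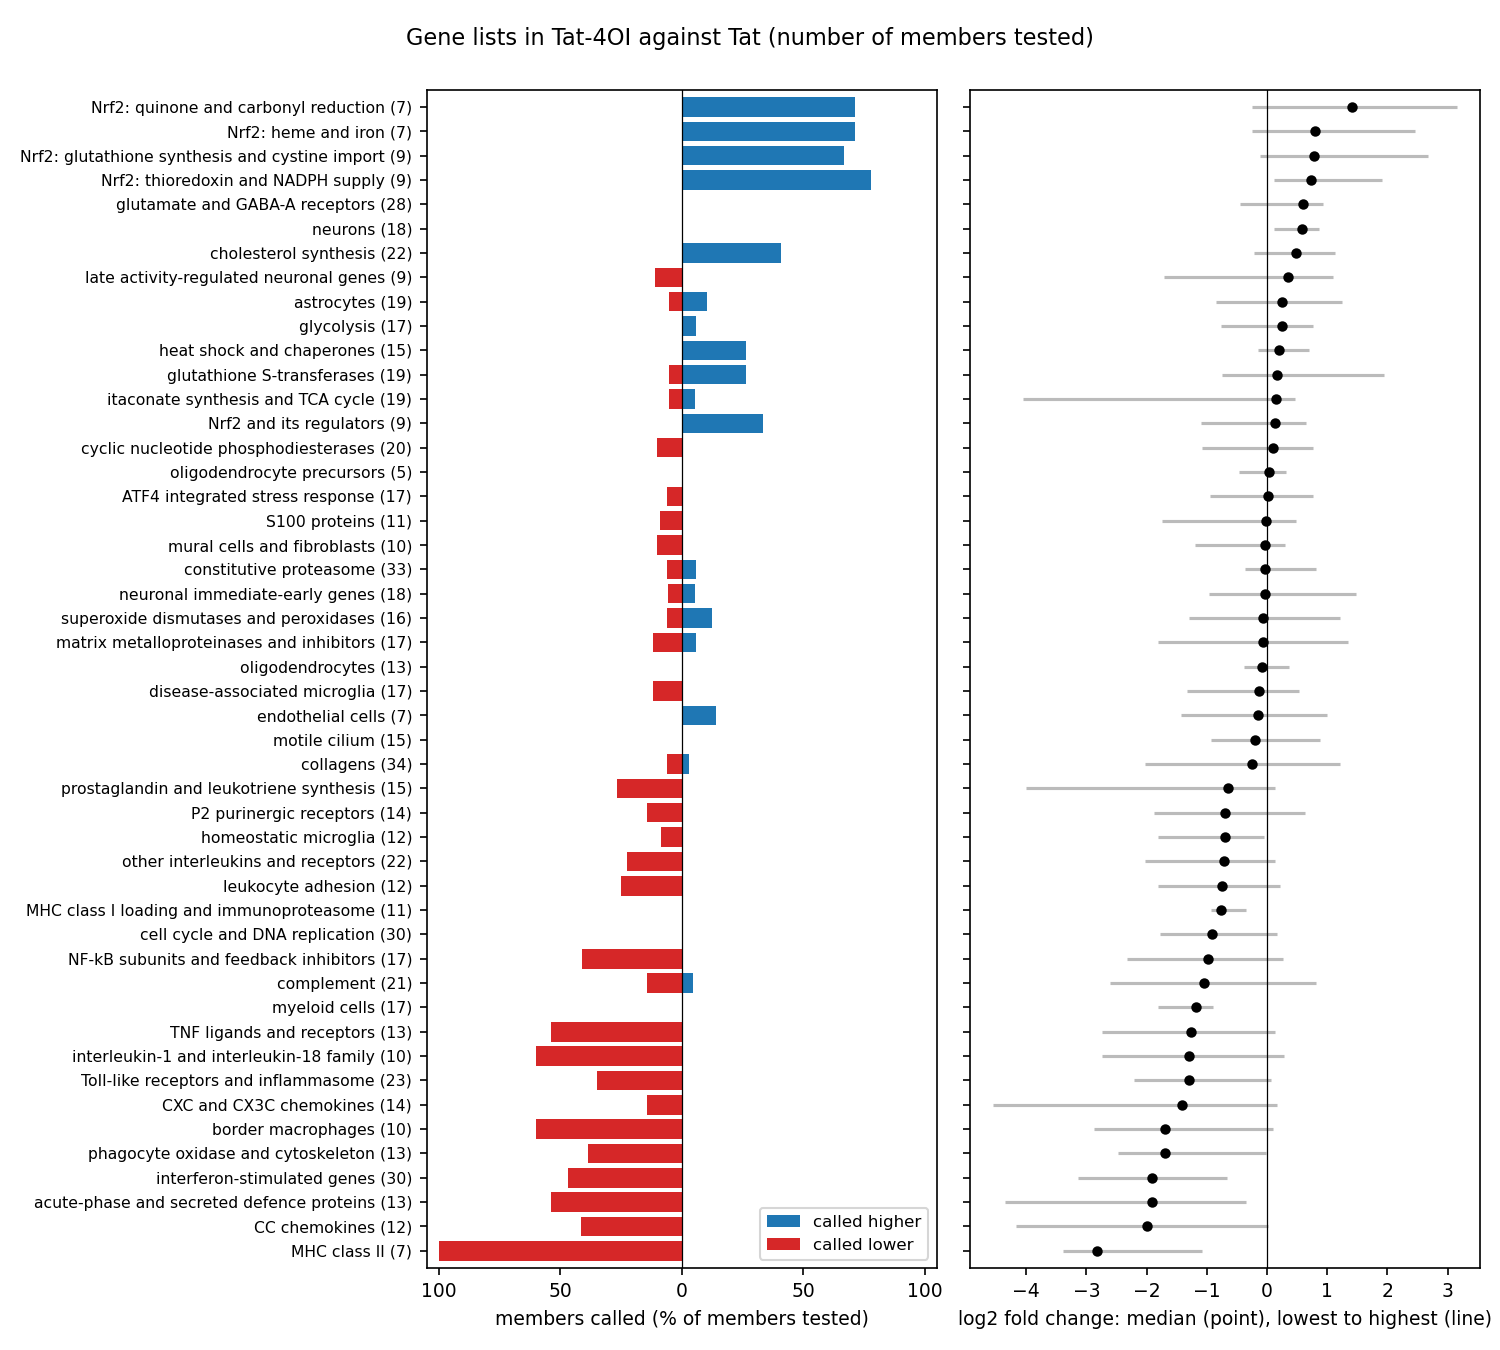
Gene lists with 5 or more tested members in Tat-4OI against Tat, with the percent of tested members called higher (blue bars) or lower (red bars) on the left, and on the right the median fitted log2 fold change (point) between the lowest and the highest member (line). The medians of the 4 lists of NRF2 targets lie highest, and that of MHC class II lies lowest at -2.82.

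The same compound was given to cultures without Tat and to cultures with Tat and cocaine, which share no library with Tat-4OI and Tat. 4OI against Control called 199 genes higher (1.27%) and 22 lower (0.141%), and Tat-Cocaine-4OI against Tat-Cocaine called 354 higher (2.27%) and 205 lower (1.31%). Same-numbered Control and 4OI libraries deviated together, and with the replicate number as a block 4OI against Control called 335 higher and 104 lower. Of the 503 rises in Tat cultures 124 were also rises with 4OI alone (24.65% of 503 and 62.31% of 199), and 197 were rises in Tat-Cocaine cultures (39.17% of 503 and 55.65% of 354). Of the 763 falls 9 were falls with 4OI alone (1.18% of 763 and 40.91% of 22) and 150 were falls in Tat-Cocaine cultures (19.66% of 763 and 73.17% of 205).

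The difference between these effects was tested directly. The 4OI effect in Tat cultures differed from that in Control cultures at 5 of 15609 genes (0.032%), all 5 more negative with Tat, and 1362 genes had an unadjusted p under 0.05. With the replicate number as a block the count was 27, 25 of them more negative with Tat. It differed from that in Tat-Cocaine cultures at 0 genes (0.0%), with 1380 genes at an unadjusted p under 0.05. Such a count does not show that the effects were alike, since the difference of 2 differences carries the spread of 12 libraries. The 4 genes with a name were RT1-Da (-3.06), RT1-Db1 (-3.29), Retn (-3.38) and Tectb (-1.69), and in Control and 4OI libraries Retn was at 0, RT1-Da reached 0.819 CPM at most and RT1-Db1 0.949 CPM, so that no fall could be measured there and the difference is in the main their effect in Tat cultures.

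For the antioxidant genes the values stood side by side. Nqo1 was higher by 1.86 in Tat cultures, by 2.41 with 4OI alone (FDR 1.56e-07) and by 1.88 in Tat-Cocaine cultures (FDR 4.14e-06). Hmox1 was higher by 2.45, 2.79 and 2.35, and Slc7a11 by 2.67, 3.85 and 2.50. The differences between these effects were not called at any of the 3 genes (lowest FDR 0.512). The median over 30 interferon-stimulated genes was -1.90 in Tat cultures, -1.65 with 4OI alone and -1.45 in Tat-Cocaine cultures, whereas that over the 7 MHC class II genes was -2.82, -0.10 and -2.26, with the class II chains near the detection limit in Control and 4OI.

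**Figure D5:**
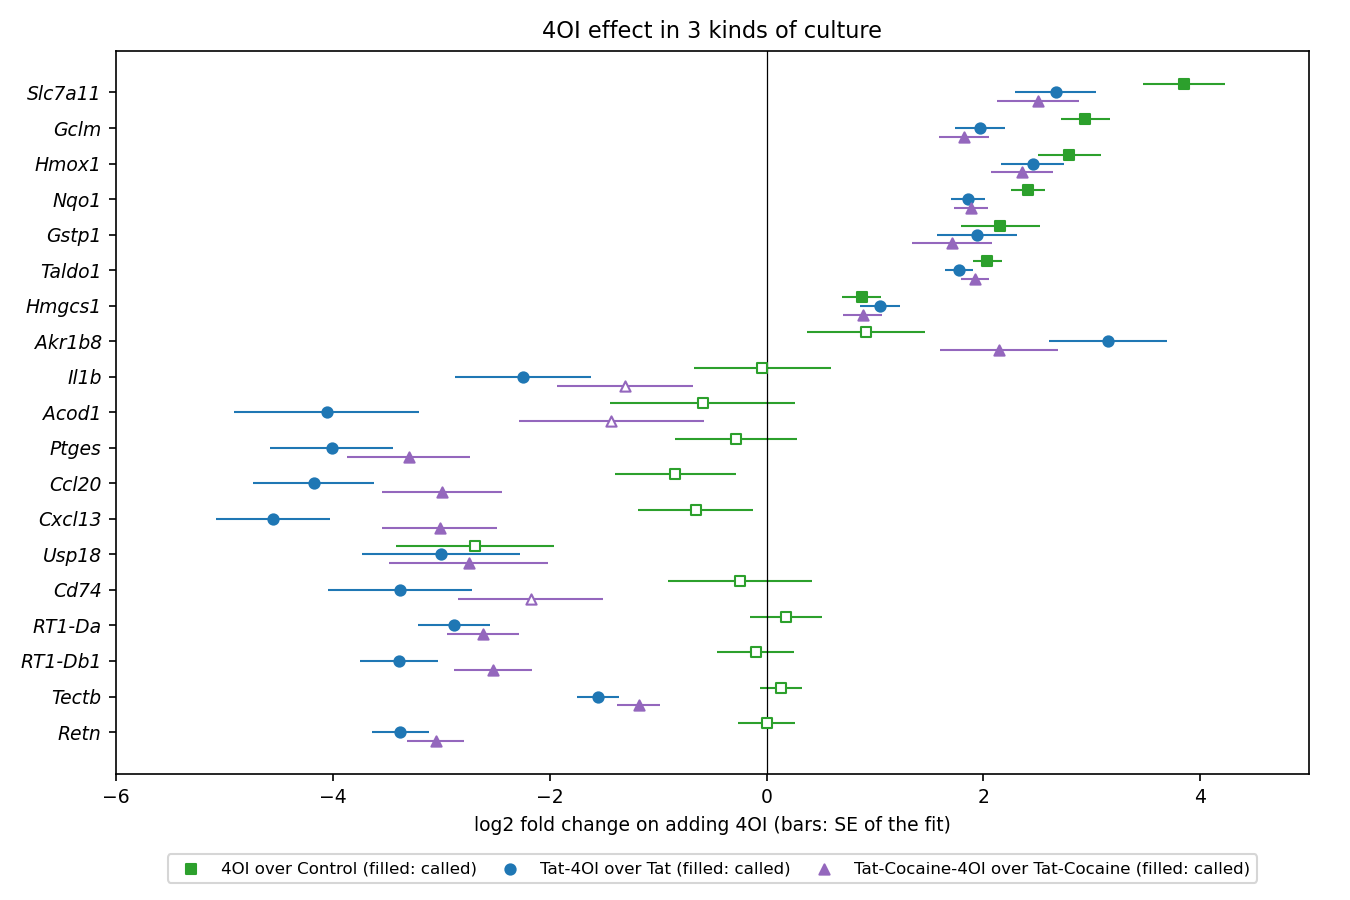
Fitted log2 fold changes of adding 4OI (horizontal axis, bars of 1 standard error) in Tat (circles), Control (squares) and Tat-Cocaine (triangles) cultures for named genes, with called changes filled. Nqo1 lies at 1.86, 2.41 and 1.88 in the 3 settings, and RT1-Da at -2.88, 0.18 and -2.62.

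Levels relative to Control were read from the same Tat and Tat-4OI libraries, so the following values share libraries with those above. Cxcl13 was at 0.619 ± 0.461 CPM in Control (mean ± SD, n = 3), 144 ± 100 in Tat and 5.49 ± 3.63 in Tat-4OI. Cd74 was at 2.86 ± 2.52, 182 ± 30.2 and 17.1 ± 3.96 CPM. For these genes Tat-4OI lay between Control and Tat, and Tat-4OI still exceeded Control (2.32 with FDR 0.015 and 2.65 with FDR 0.0272). Ptges was at 0.571 ± 0.311 CPM in Control and 2.54 ± 2.04 in Tat-4OI, a difference that was not called (1.35, FDR 0.195). Cfb and Lcn2 remained far above Control in Tat-4OI (3.18 with FDR 0.012 and 5.05 with FDR 0.00225). Hmox1 and Nqo1, in contrast, were higher than Control in Tat-4OI by 3.11 and 2.02 and were not called in Tat against Control (0.65 with FDR 0.139 and 0.16 with FDR 0.511).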

How the data were processed

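The 48 libraries were poly(A) RNA-seq of rat cortical cultures, of which 6 (3 Tat, 3 Tat-4OI) form the comparison and 21 of 7 groups entered the fit. Per the submitters' processing notes reads were trimmed (Trim Galore 0.4.5), aligned (STAR 2.7.2) and counted per gene (Subread 1.5.3, SAMtools 1.5), with uniquely mapped reads kept; the rat build is given as mRatBN7.2 in those notes and differently in the study, so no coordinates of the counted genes are printed and promoter positions are those of RefSeq GRCr8. The deposited signal values are CPM that the authors scaled between libraries, for 30211 gene symbols, 6162 of them at 0 in every library. Between 85.5% and 87.0% of the values in the 6 libraries were whole reads within 0.02 reads, so no count test was run. The deposited table also holds 180 columns of the authors' 36 comparisons (fold changes and p-values) and 16 group means, none of which was used.

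The 15609 genes that reached 0.5 CPM in 3 or more of these 21 libraries were tested on log2(CPM + 0.5) with limma 3.58.1 in R 4.3.3 (lmFit, eBayes with trend, no covariates, Benjamini-Hochberg FDR under 0.05), after a test of the script on simulated data. An exact permutation test of 3 against 3 libraries cannot go below p = 0.1. Replicate libraries differed by more than sampling noise (chi-square per degree of freedom 15.6 to 59.8), so none was counted as a duplicate. Depth set the detection limit given in the report, and such limits cover counting error only. The alternatives were other pseudocounts, filters, scalings, library sets, variance models, a fold threshold, a replicate block and the omission of each library.

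The members and the gene lists were chosen with earlier results of these data known. Named genes were the 12 largest rises and falls that were called without any 1 library, did not overlap and reached 5 CPM, up to 4 called and 2 uncalled members per list, a fixed set of genes of the study, and genes called for the differences between settings. Symbols of unnamed loci were counted but not named, and some genes that the rule picked are not reported here. Promoters were matched by symbol.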

Additional observations from a re-analysis of the deposited data

Results flagged for a closer look

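The difference between the effect of adding 4OI in Tat cultures and in cultures without Tat passed the test in limma at 4 named genes. All 4 were at or near the detection limit without Tat, where no fall could be measured. The difference therefore largely repeats their effect in Tat cultures and does not show that 4OI acts differently on them. Their SE also draws on the groups at or near that limit. The difference of the log2 effects was -3.38 (SE 0.374, FDR 0.00121) for Retn, -3.29 (SE 0.506, FDR 0.0235) for RT1-Db1, -3.06 (SE 0.466, FDR 0.0235) for RT1-Da and -1.69 (SE 0.276, FDR 0.0379) for Tectb, which encodes a matrix protein of the inner ear. Tectb was at 1.98, 2.25 and 2.79 CPM in Tat and 0.375, 0.699 and 0.341 CPM in Tat-4OI, and at means of 0.22 and 0.291 CPM in Control and 4OI.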

How the results depend on the processing

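The count of 1266 called genes was 2475 with all 48 libraries in the fit, 4506 with library quality weights, 2354 with the replicate block and 479 with a fold threshold of 1 on the log2 scale, and between 390 and 1263 when 1 library was left out. The rises (503) became 969, 2075, 956 and 85 under these settings and 182 to 474 without a library, and the falls (763) became 1506, 2431, 1398 and 394, and 208 to 789. Pseudocounts, filters, scalings, the fit to the compared groups alone and the fit without a trend gave 993 to 1328 calls. Similar counts were not always the same genes. The fit to the compared groups alone called 1134 genes, and 810 of them were among the 1266. No gene called in the main and in any other setting changed direction. With quantile normalization 50.15% of the calls were rises, against 39.73%, and the median of all genes was 0.046. The difference from the effect without Tat was called at 5 genes, 3 with a pseudocount of 0.1 CPM, 11 in the fit to the compared groups, 79 with all libraries, 644 with weights, 27 with the replicate block and 2 to 7 without a library. The difference from the effect with Tat and cocaine was called at 0 genes in every setting. Same-numbered Tat and Tat-4OI libraries correlated at -0.18, 0.59 and 0.15 in their deviations from the group means. Tat and Tat-4OI libraries of different numbers correlated at -0.61 to 0.61. The first same-numbered value is under the limit of 0.1 used here, so a pairing by number was not shown, and these values do not exclude it. Same-numbered libraries of Control and 4OI correlated at 0.28, 0.47 and 0.34, which pairs them by that limit. Those of Tat-Cocaine and Tat-Cocaine-4OI correlated at 0.58, -0.20 and -0.16. Of 237 named genes 132 were called, 67 of these without any 1 library and 107 under each of the 11 other settings. A change of sign was seen at 14 uncalled genes. With weights Esam came to -0.13, Folr1 to 0.068, Gstm7 to 0.095 and Itgb1 to -0.0021; with median ratio scaling Itgb1, Mbp and Tagln came to -0.00484, -0.00565 and -0.00233, and with quantile normalization to -0.059, -0.011 and -0.017. Over the fits without 1 library the values ranged from -0.18 to 0.0045 for Abcc1, -0.19 to 0.08 for Atf4, -0.032 to 0.30 for Esam, -0.25 to 0.063 for Folr1, -0.23 to 0.27 for Gstm7, -0.60 to 0.15 for Il6, -0.059 to 0.079 for Itgb1, -0.0068 to 0.19 for Jun, -0.78 to 0.99 for Mbp, -0.32 to 0.16 for Mgst1, -0.059 to 0.23 for Pdgfra, -0.52 to 0.063 for Ptgr1, -0.062 to 0.0064 for Rac1 and -0.19 to 0.26 for Tagln. The cause of these shifts was not tested. Depth limits what can be said of genes under 0.5 CPM, which corresponds to 9.30 to 10.9 reads.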

Other observations

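Calls in other gene groups are to be read beside the 8.11% called over all tested genes (3.22% higher, 4.89% lower). Of 34 collagen genes Col9a3 fell, from 23.1, 24.1 and 24.1 CPM to 3.96, 7.21 and 5.64 CPM (-2.03, SE 0.28, FDR 0.000531), Col6a2 fell (-1.17, FDR 0.0387) and Col4a5 rose (0.53, FDR 0.0101). Of 17 matrix metalloproteinases and inhibitors 2 fell and 1 rose. Mmp2 fell by 1.82 on the log2 scale (FDR 0.0204) and Mmp15 rose by 0.53 (FDR 0.00468). Of 10 mural cell and fibroblast markers, 5 above and 5 below 0 (median -0.04), Pdgfrb, the pericyte receptor, fell from 71.8, 71.0 and 51.4 CPM to 23.01, 31.5 and 28.6 CPM (-1.21, SE 0.21, FDR 0.00253), while of 7 endothelial markers, 4 of them below 0 (median -0.15), Egfl7 rose from 2.89, 2.67 and 2.84 CPM to 6.15, 5.75 and 6.28 CPM (0.99, FDR 0.00976). Of 18 immediate-early genes the AP-1 subunit Fosl1 rose (1.47, FDR 0.000364) and the antiproliferative Btg2 fell (-0.96, FDR 0.00143), both in each fit without a library. Of 33 proteasome genes 2 rose, the assembly chaperone Psmd5 (0.81, FDR 3.98e-05) and Psmd11 (0.26, FDR 0.0128), and 2 fell, Psma6 (-0.37, FDR 0.0371) and Psma2 (-0.27, FDR 0.0326).

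Cell cycle genes had 0 calls by limma among 30, and 12 were lower at an unadjusted p under 0.05 (median -0.91), which 4137 of all 15609 tested genes reached in either direction. Rasl12, a small GTPase of the RAS family, fell from 56.4, 98.8 and 58.1 CPM to 6.37, 10.2 and 7.59 CPM (-3.04, SE 0.41, FDR 0.000315), and Kank4 from 19.8, 26.5 and 10.97 CPM to 1.23, 2.96 and 1.46 CPM (-3.02, FDR 0.00685). Summed oligodendrocyte markers differed more within groups than between them, from 623.8 to 2861 CPM in Tat and from 611.1 to 2548 CPM in Tat-4OI.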
